A study of Mus musculus with 226 samples.

Results

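The Ia-like neurons described here were 62 spiral ganglion neurons, set against the 124 other Wildtype neurons of the series and chosen cell by cell for at least 4500 CPM of Calb2 and under 300 CPM of Lypd1. CPM is a gene's count scaled to the same total of gene counts in every cell. Each cell was sequenced on its own with Smart-seq2, which reads whole transcripts of single cells, and the 40 Vglut3-/- cells that make up the rest of the series were not used. All mice were bhlhb5::cre/+; Ai14/+, so the Wildtype cells too carried 1 Cre driver allele and 1 reporter allele, and a neuron could be picked by hand only where that driver had switched on tdTomato. Wildtype cells were taken at postnatal days 25, 26 and 27 (P25, P26 and P27) from the Apex, Middle or Base of the cochlear spiral, which respond to low, intermediate and high sound frequencies. No label names an animal or preparation, so each group of cells counts as 1 sample: no p-value is given, and the intervals printed here, at 95%, cover counting error only.

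Spiral ganglion neurons relay sound from hair cells to the brainstem. Type I neurons contact inner hair cells and fall into the subtypes Ia, Ib and Ic, which are told apart by graded Calb2 and, for Ic, by Lypd1, and which are thought to differ in where they contact the hair cell and in how readily they fire. The sparser type II neurons contact outer hair cells. Calb2 encodes calretinin, a cytoplasmic calcium buffer of the EF-hand family, and Lypd1 encodes a membrane-anchored protein that modulates nicotinic acetylcholine receptors.

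The 62 neurons, called high-Calb2 cells from here on, held 5066 CPM of Calb2 in the lowest cell, 10902 in the median cell and 20031 in the highest. The 3 lowest had 5066, 5609 and 5640 CPM, and the 3 highest Wildtype cells under the limit had 4465, 4344 and 4339 CPM, so the levels ran close up to the limit on both sides. Lypd1 had 0 counts in 58 of the 62 cells and reached 54.1 CPM in the highest, while the lowest cell above the Lypd1 limit had 362 CPM. These levels chose the cells and are a description only. The other 124 Wildtype cells were split into 73 with intermediate Calb2 (below both limits), 44 with high Lypd1 (at or above 300 CPM) and 7 with a type II marker (Th at or above 100 CPM or Ngfr at or above 1000 CPM). No cell with Lypd1 above its limit had more than 2681 CPM of Calb2, so the 2 limits never competed for a cell.

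**Figure D1:**
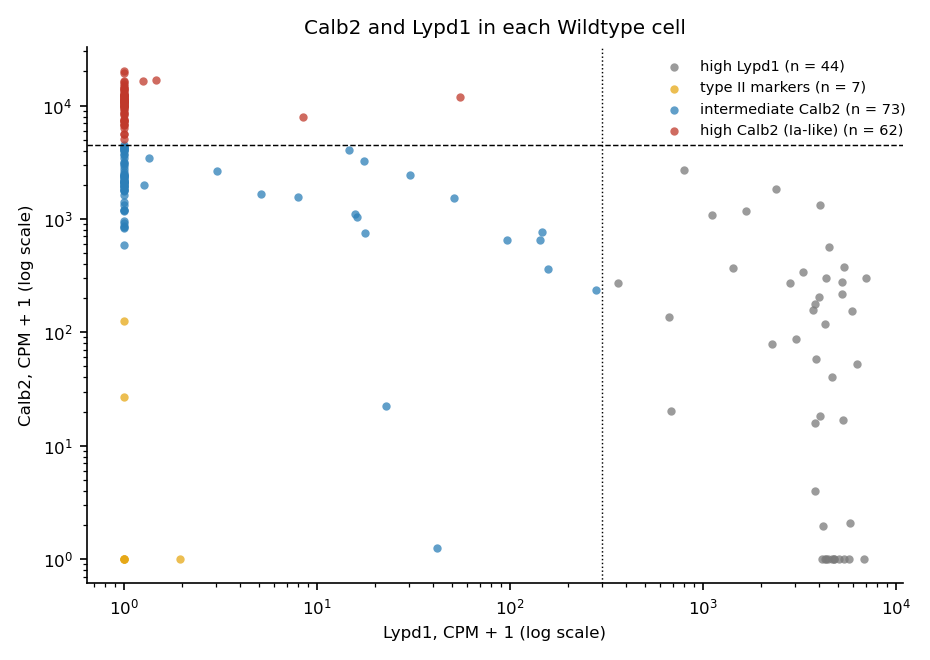
Calb2 against Lypd1 in each Wildtype cell, both as CPM + 1 on log axes; colours mark the 4 classes, and the dashed and dotted lines mark the limits of 4500 CPM of Calb2 and 300 CPM of Lypd1. The 62 high-Calb2 cells stand at the upper left, 58 of them with 0 Lypd1 counts, and the intermediate cells reach up to just under the dashed line.

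Further markers of Ia were Pcdh20, which encodes a protocadherin (a cell adhesion protein), and Rxrg, which encodes the nuclear retinoid X receptor gamma. Neither was used to choose the cells, but both were listed with earlier results of these data known. Their levels are thus a description and not an independent check of the Ia label. Pcdh20 was at 0 CPM in the lowest high-Calb2 cell, 114 in the median and 428 in the highest, with a count in 58 of 62 cells. Rxrg was at 0, 56.2 and 299 CPM, with a count in 56 of 62 cells. Both genes were at 10 CPM or more in 48 of 62 high-Calb2 cells, in 7 of 73 intermediate cells and in 0 of 44 high-Lypd1 cells. Over summed counts Pcdh20 was at 138.6 CPM (136.8 to 140.4) against 22.8 CPM (22.3 to 23.3) in the other Wildtype cells, a log2 difference of 2.55 on CPM + 1. Rxrg was at 67.7 CPM (66.4 to 69.01) against 6.99 CPM (6.71 to 7.28), a log2 difference of 3.10. Neither marker was particular to these cells: the 7 cells with a type II marker held 252 CPM of Pcdh20 and 39.7 CPM of Rxrg, but only 17.5 CPM of Calb2.

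Of 13 fibroblast, vessel, immune and blood cell markers, 12 had 0 counts in all 62 cells, and their summed level ran from 0 to 4.90 CPM per cell against 0 to 38.6 in the other cells. Of 12 glial markers, S100b alone reached the level needed for a comparison, at 486 CPM against 452, and 4 had 0 counts; the summed level ran from 161.7 to 894 CPM against 0 to 1177. Of 10 hair cell markers, Myo6 alone reached it, at 38.4 CPM against 53.7, and 6 had 0 counts; the summed level ran from 0 to 140 CPM against 0 to 334. Counts on genes ran from 651345 to 5186128 per high-Calb2 cell, with a median of 2549590, against a median of 2676024 in the other cells, and after each cell was drawn down to 500000 counts the median number of genes with a count was 7950 against 7857. Spike-in RNA took a median of 2.61% of the counts of high-Calb2 cells and 3.44% of the others, and gene counts per spike-in count were higher in high-Calb2 cells at the median in each of the 4 larger sets (33.99 against 27.2 at P26 Middle, 131 against 117.6 at P26 Base, 25.9 against 18.2 at P27 Apex and 121.7 against 30.3 at P27 Middle). At P27 Middle, 3 of 4 high-Calb2 cells but 12 of 30 others had a spike-in share below 2%. At P27 Apex the others include 6 cells with type II markers, at a median of 9.09 gene counts per spike-in count, and the intermediate cells were at 22.2. The part of these differences in the results was not tested.

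Windows of 250 bases before RefSeq start sites (GRCm38.p6) are shown for some genes with large differences, read 5′ to 3′ on the gene's strand. They are Rxrg and Pcdh20 among those with more RNA in high-Calb2 cells, and Pou4f1, Lypd1 and Mgat4c among those with less. Capitals mark AGGTCA, the half-site of nuclear receptors such as the Rxrg product, TGTGGT, the core bound by Runx proteins, or ATAATTAAT, a Pou4 site, on either strand; a match on the other strand stands as its reverse complement. These motifs share no letters in the windows shown. RefSeq gives Rxrg 2 start sites, Lypd1 3 and Mgat4c 4: both windows of Rxrg are shown, and for Lypd1 and Mgat4c those with a match, while their other windows held none of the motifs. None of the 7 windows shown overlaps an exon of GENCODE M21.
Rxrg, first start, chr1:167598112-167598361, plus strand: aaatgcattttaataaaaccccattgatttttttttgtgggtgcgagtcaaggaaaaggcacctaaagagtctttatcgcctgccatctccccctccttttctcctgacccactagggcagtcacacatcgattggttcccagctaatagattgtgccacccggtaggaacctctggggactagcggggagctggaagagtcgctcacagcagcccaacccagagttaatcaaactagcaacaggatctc
Rxrg, second start, chr1:167618015-167618264, plus strand: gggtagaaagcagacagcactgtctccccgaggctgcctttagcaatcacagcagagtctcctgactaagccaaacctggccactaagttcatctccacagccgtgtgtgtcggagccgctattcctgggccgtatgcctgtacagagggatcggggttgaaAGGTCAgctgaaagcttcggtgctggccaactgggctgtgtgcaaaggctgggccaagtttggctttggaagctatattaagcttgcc
Pcdh20, chr14:88471397-88471646, minus strand: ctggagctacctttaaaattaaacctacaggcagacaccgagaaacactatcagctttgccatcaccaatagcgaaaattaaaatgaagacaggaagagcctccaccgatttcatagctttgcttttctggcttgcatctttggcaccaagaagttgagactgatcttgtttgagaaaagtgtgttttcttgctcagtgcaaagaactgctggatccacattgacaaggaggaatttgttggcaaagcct
Pou4f1, chr14:104468000-104468249, minus strand: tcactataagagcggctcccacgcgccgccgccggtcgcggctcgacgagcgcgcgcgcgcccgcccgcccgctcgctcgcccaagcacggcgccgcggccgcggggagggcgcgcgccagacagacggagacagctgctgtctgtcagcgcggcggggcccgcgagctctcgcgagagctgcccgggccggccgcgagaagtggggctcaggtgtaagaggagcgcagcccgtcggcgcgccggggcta
Lypd1, second start, chr1:125912215-125912464, minus strand: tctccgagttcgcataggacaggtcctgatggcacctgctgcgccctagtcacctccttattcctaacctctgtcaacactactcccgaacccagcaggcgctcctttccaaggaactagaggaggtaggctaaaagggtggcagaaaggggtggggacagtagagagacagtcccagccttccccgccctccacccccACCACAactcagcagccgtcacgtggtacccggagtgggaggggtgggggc
Mgat4c, first start, chr10:101681237-101681486, plus strand: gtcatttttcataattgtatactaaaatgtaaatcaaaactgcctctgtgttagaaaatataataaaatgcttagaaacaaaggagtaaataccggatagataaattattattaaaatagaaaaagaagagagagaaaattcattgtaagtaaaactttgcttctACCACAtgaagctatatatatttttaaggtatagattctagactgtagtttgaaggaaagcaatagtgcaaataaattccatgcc
Mgat4c, second start, chr10:102158608-102158857, plus strand: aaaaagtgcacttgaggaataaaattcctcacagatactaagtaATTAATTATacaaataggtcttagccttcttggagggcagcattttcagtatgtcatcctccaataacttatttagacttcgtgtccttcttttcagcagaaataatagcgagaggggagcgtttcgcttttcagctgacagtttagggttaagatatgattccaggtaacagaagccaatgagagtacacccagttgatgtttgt
Of the 12 genes with the largest difference upward, introduced next, 9 matched and gave 13 windows, of which 3 held AGGTCA, 0 TGTGGT and 0 the Pou4 site. Of the 12 with the largest difference downward, 9 matched and gave 16 windows, of which 1 held AGGTCA, 3 TGTGGT and 1 the Pou4 site. Matches not shown lay before B3gat1 and Plin2 (AGGTCA), both higher, and before Sdc4 (AGGTCA) and Scn2b (TGTGGT), both lower. The windows shown are thus no guide to how the motifs divide between the 2 sides. Over all 32536 different windows of this length the shares were 14.04%, 13.96% and 0.258%. A match is a description of the letters, not a binding site.

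Against all other Wildtype cells, 103 of 8744 genes with enough counts (1.18%) were higher in high-Calb2 cells and 232 (2.65%) were lower. A gene was counted when the higher group had at least 10 CPM and a count in at least 25% of its cells, the log2 difference of summed CPM + 1 was at least 1 in size, it was at least 0.5 in size on the same side at P26 alone and at P27 alone, and the mean of log2(CPM + 1) over cells differed by at least 0.5 on the same side. The median log2 difference of all 8744 genes was -0.02. Lower genes thus outnumbered higher ones. With 5 CPM added in place of 1, fewer genes reached the limit, 0.835% higher and 1.74% lower.

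Besides Calb2, Rxrg and Pcdh20, the 12 largest differences upward were in Trim54, Tmem132c, B3gat1, Tmem229a, Plin2, Dok5, Myo1e, Zfp532 and Tspan9. B3gat1, which encodes an enzyme that helps build the HNK-1 sugar epitope on adhesion molecules, was counted in all 62 high-Calb2 cells, at 11.9 CPM in the lowest, 56.9 in the median and 468 in the highest. Among the intermediate cells the B3gat1 median was 4.14 CPM, and among the high-Lypd1 cells it was 0. The log2 difference was 3.05, and B3gat1 shares exon sequence with Glb1l2 on the other strand. Dok5, an adaptor of receptor tyrosine kinases, was counted in 61 of 62 cells with a median of 43.03 CPM and a highest value of 128.4 CPM, and in 29 of the 124 others (log2 difference 2.78).

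Plin2, a coat protein of lipid droplets, had a median of 52.2 CPM in high-Calb2 cells and a highest value of 307 CPM, with a count in 55 of 62 cells against 25 of 124 others (log2 difference 2.90). Trim54, a microtubule-associated RING finger protein best known from striated muscle, was counted in 43 of 62 cells with a median of 23.7 CPM and a highest value of 210.8 CPM, and in 12 of the 124 others. Its log2 difference of 3.27 was the largest upward, and its exons overlap Gm15469 on the other strand. Tmem132c (3.12), Tmem229a (2.93), Myo1e, an unconventional myosin (2.64), Zfp532, a zinc finger protein (2.53), and Tspan9, a tetraspanin (2.4), had a count in 52, 33, 33, 58 and 50 of 62 cells. So the higher genes ranged from B3gat1, present in every cell, to Tmem229a, whose median cell held 0.83 CPM.

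The 12 largest differences downward, Lypd1 apart, were in genes counted in 0 to 21 of the 62 high-Calb2 cells. Ntng1, which encodes the membrane-anchored adhesion protein netrin-G1, was at 0 CPM in the lowest and the median high-Calb2 cell and at 210.5 in the highest. In the other cells Ntng1 was at 0, 239 and 736 CPM, with a count in 119 of 124 against 12 of 62 (log2 difference -5.29). Pou4f1, the POU-homeodomain transcription factor Brn3a of sensory neurons, was at 0, 0 and 291 CPM with a count in 8 of 62 cells. In the other cells Pou4f1 was at 0, 230.3 and 1901 CPM with a count in 63 of 73 intermediate and in all 44 high-Lypd1 cells (log2 difference -5.28). For both genes the 2 groups overlapped, because some high-Calb2 cells had counts and some other cells had 0. The high-Calb2 cells of P27 Apex with Pou4f1 are described further on.

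Scn2b, a sodium channel beta subunit, was at 0 CPM in the median high-Calb2 cell and 193.6 in the highest, and at 44.99 and 3187 in the others, a log2 difference of -4.62. The level was highest in the cells with type II markers, at 1916 CPM, and the intermediate cells held 134.2 and the high-Lypd1 cells 130.1 CPM. Nalcn, the sodium leak channel, had a count in 3 of 62 cells against 72 of 124 (-4.43). Sdc4, the heparan sulphate proteoglycan syndecan-4, had a count in 8 of 62 against 98 of 124 (-4.30), and Khdrbs2, a splicing regulator, in 1 of 62 against 66 of 124 (-4.10).

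Ccdc109b, a subunit of the mitochondrial calcium uniporter, Mgat4c, an N-glycan glycosyltransferase, and Chst9, a sulphotransferase, had 0 counts in all 62 high-Calb2 cells, and a count in 47, 53 and 35 of the 124 others. Set against 3 counts over those cells, Ccdc109b was at least 1200-fold, Mgat4c at least 935-fold and Chst9 at least 930.1-fold lower than in the other cells. Such bounds, here and below, cover counting error only and not the spread between cells. Khdrbs2, for example, had 48 counts, all from 1 of the 62 cells. Ncald, the calcium sensor neurocalcin delta, had a count in 2 of 62 cells against 64 of 124 (log2 difference -4.72), and Grm8, a group III metabotropic glutamate receptor, in 2 of 62 against 48 of 124 (-4.20). Ncald shares exon sequence with annotated genes on both strands, Lypd1 with Gpr39 on the other strand and Grm8 with Mir592, and Zfp532, Maf, Runx1, Satb1, Ttn, Cib2, Kcnip4 and Nlgn1, given further on or above, with genes on the other strand. The strand setting of the counting is not given in the sources used here, so the level of each of these genes is uncertain by the reads of its partner.

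**Figure D2:**
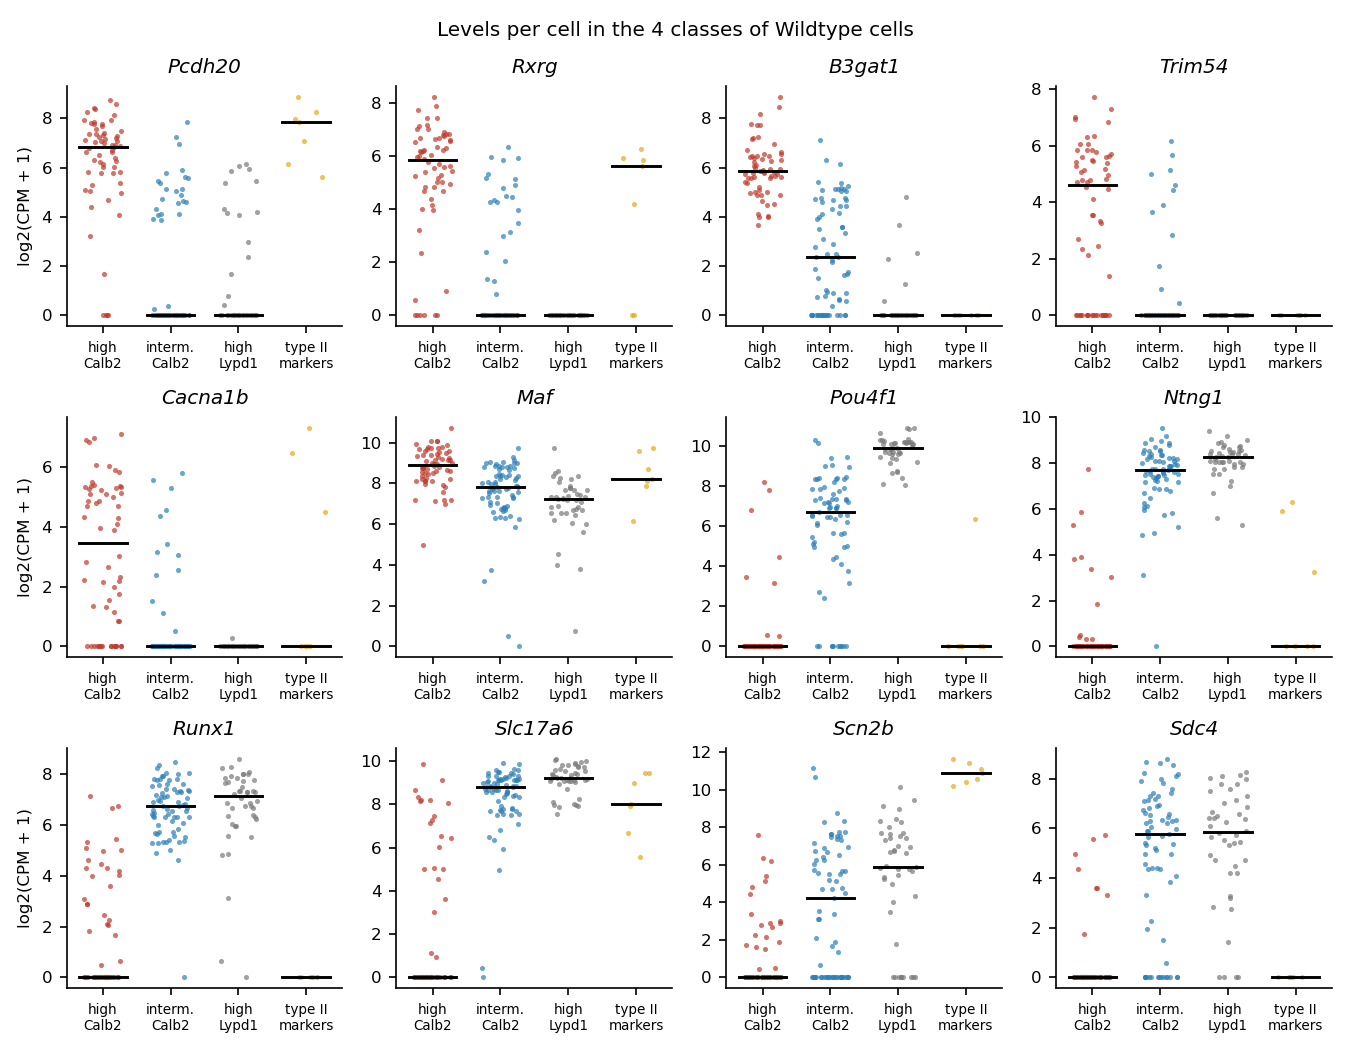
Levels of 12 genes as log2(CPM + 1) in each cell of the 4 classes of Wildtype cells, with a bar at the median. Pcdh20, Rxrg, B3gat1, Trim54, Cacna1b and Maf lie higher in the 62 high-Calb2 cells than in the intermediate and high-Lypd1 cells. Pou4f1, Ntng1, Runx1, Slc17a6, Scn2b and Sdc4 lie lower. Some high-Calb2 cells lie up among the others, and 22 of the 62 have a Slc17a6 count.

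Calb2 and Lypd1 apart, whose side the rule fixed, each of these genes lay on the same side in the 4 larger sets of cells, P26 Middle, P26 Base, P27 Apex and P27 Middle. The genes were picked for their difference over these same cells, so this is a description. The smallest upward difference was 2.48 at P26 Middle, 1.88 at P26 Base and 1.59 at P27 Middle, but 0.14 at P27 Apex. That value was Pcdh20. The P27 Apex set held 6 of the 7 cells with type II markers, in which Pcdh20 was high, while its intermediate cells held 7.77 CPM. The 14 high-Calb2 cells there had 37.9 CPM (35.9 to 39.99) of Pcdh20 against 172.6 CPM at P26 Middle. The part of the type II-marker cells and of this lower level in the small difference was not tested. P27 Apex and P26 Middle differ in age, turn and sex together. Y-linked transcripts were present in 0 cells of P27 Apex and in 15 of the 24 high-Calb2 cells of P26 Middle. The downward differences ran from -2.41 to -8.96 over the 4 sets, Lypd1 left out. The full lists held less evenly than these largest differences. Of the 103 higher genes, 86 lay on the same side in all 4 sets, and 35 were at least 1 in size in each. Most of the 232 lower genes kept their side in all 4, but only a minority were at least 1 in size in each.

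**Figure D3:**
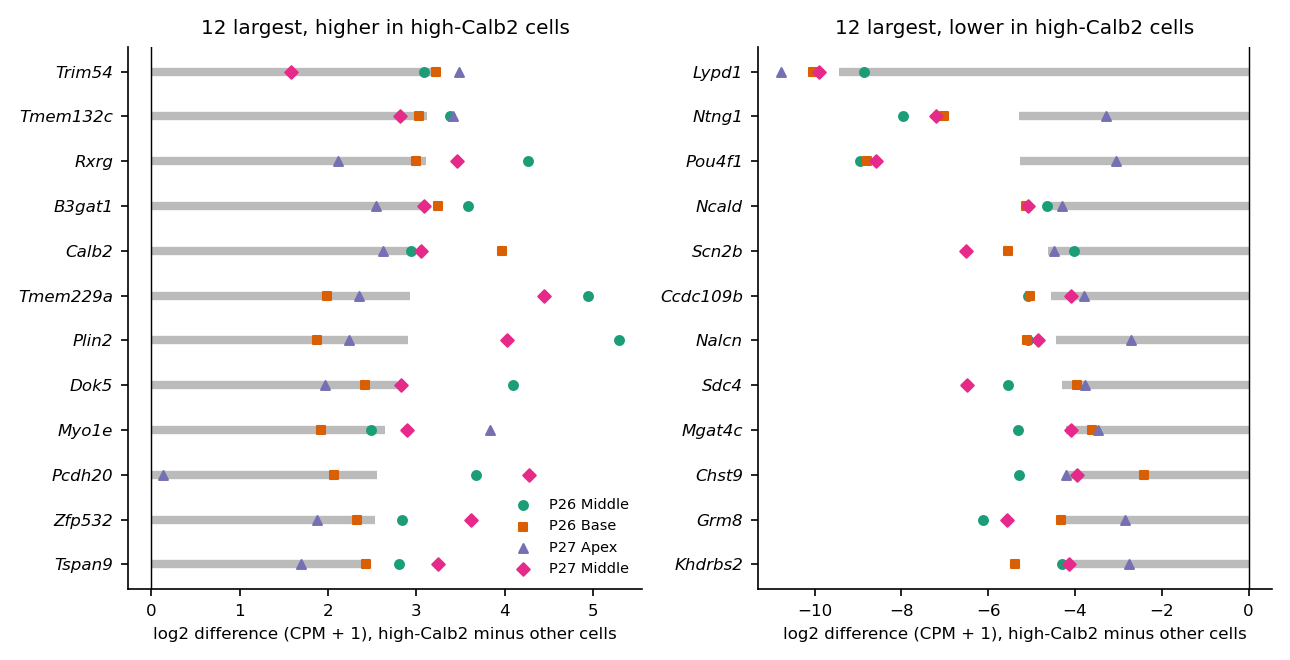
Log2 difference of summed CPM + 1, high-Calb2 minus other Wildtype cells, for the 12 largest genes on each side; grey bars are all cells together and symbols the 4 larger sets. Every symbol lies on its bar's side of 0, the nearest being Pcdh20 at P27 Apex with 0.14.

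The intermediate cells are the closest in Calb2, with a median of 2066 CPM, though the lowest of them held 0.26 CPM. Against them alone, 110 of 8665 genes (1.27%) were higher and 1.95% lower in high-Calb2 cells. Of its largest differences, named after their values were seen, Myl1, a myosin light chain, was at 35.8 CPM against 1.39 (log2 difference 3.94), and Olfml2b, an olfactomedin-like protein, at 19.5 against 0.95 (3.39). Ttn, the giant sarcomere protein titin and here a marker of Ib, was at 11.5 CPM against 250.4 (-4.34), and Calb1, the calcium buffer calbindin, at 17.8 against 224.6 (-3.59). In the high-Lypd1 cells Ttn was at 10.6 CPM, so it did not separate them from the high-Calb2 cells.

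Against the 44 high-Lypd1 cells, 246 of 8799 genes (2.8%) were higher and 333 (3.78%) lower. Of the 103 higher and 232 lower genes above, 67 and 100 passed the limits against each of these classes taken alone, which are made of the same other cells. Rxrg, Trim54 and Tmem229a had 0 counts in all 44 of those cells, and against 3 counts over them were at least 2709-fold, 1399-fold and 935-fold higher in high-Calb2 cells. Grm8, Ccdc109b, Mgat4c and Chst9 separated the high-Calb2 cells from the high-Lypd1 cells (log2 differences of -5.65, -5.98, -5.41 and -5.53) and did not pass the limits against the intermediate cells, where they were at 0.57, 0.48, 4.74 and 2.4 CPM. Mgat4c and Chst9 were nonetheless counted in 14 and 4 of the 73 intermediate cells. By counting error alone, they were at least 252.9-fold and 127.8-fold lower in high-Calb2 cells, though few intermediate cells held the counts. Ntng1, Ncald, Nalcn, Sdc4, Scn2b, Pou4f1 and Khdrbs2 passed the limits against both classes. Of the list genes given below, Kcnip4, Chrna4, Cdh9, Cdh22, Lrrc4c and Arc were higher than all others but did not pass against the intermediate cells. The same held on the lower side for Scn3a, Cacng5, Htr2c, Cplx2, Sema4d, Plxna2, Dcc, Pcdh9 and Satb1.

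The genes on lists of known functions, 24 lists in all, were read against the background of 1.18% higher and 2.65% lower. Of 39 transcription factors with enough counts, 4 were higher (Maf, Rxrg, Zfhx3 and Nfib) and 4 lower, among them Runx1, Pou4f1 and Satb1, and the median log2 difference of the list was -0.13. Maf, a basic leucine zipper factor, was at 30.2 CPM in the lowest high-Calb2 cell, 473 in the median and 1683 in the highest, against medians of 221.7 in intermediate and 149 in high-Lypd1 cells (log2 difference from all others 1.16). Maf was at 512 to 692 CPM in the high-Calb2 cells of the 4 sets, and above the others in each. Runx1, a Runt-domain factor, had a median of 0 CPM in high-Calb2 cells and a highest value of 138.7 CPM, against 108.2 and 383 in the others (-3.43).

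Of 28 vesicle and release genes with enough counts, 0 were higher and 2 lower, Slc17a6 and Cplx2, with a list median of -0.07. Slc17a6 encodes the vesicular glutamate transporter VGLUT2. It was at 0 CPM in the lowest and median high-Calb2 cell, 942 in the highest, and was counted in 22 of 62 cells, against 0, 521 and 1099 CPM in the others, where 72 of 73 intermediate and all 44 high-Lypd1 cells had a count (log2 difference -3.0). The level depended on the set: 13.7 CPM in 24 cells of P26 Middle, 7.71 in 18 cells of P26 Base and 5.10 in 4 cells of P27 Middle, but 243 in 14 cells of P27 Apex, where 13 had a count. The intermediate cells held between 347 and 453 CPM in those 4 sets. Slc17a7, which encodes the related transporter VGLUT1 and is given here after its values were seen, was at 105.7 CPM against 55.7 (0.91), under the limit. Cplx2, a complexin that binds the release machinery, was at 4.18 CPM against 24.6 (-2.31), but at 4.09 in the intermediate cells.

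Among channels, 0 of 22 potassium channel genes with enough counts were higher and 1 lower: Kcnab1, an auxiliary subunit, at 31.8 CPM against 87.03 (log2 difference -1.42; exons shared on the other strand). Of 11 sodium and HCN channel genes, 0 were higher and 3 lower, Scn2b and Nalcn as given and Scn3a, an alpha subunit, at 8.77 CPM against 25.6 (-1.45; without P27 Apex -0.94, under the limit). Of 8 voltage-gated calcium channel genes, 1 was higher and 0 lower. It was Cacna1b, the pore subunit of the N-type channel, at 0, 10.5 and 140 CPM in the lowest, median and highest high-Calb2 cell, with a count in 46 of 62. Cacna1b was counted in 13 of 73 intermediate and 1 of 44 high-Lypd1 cells, and the log2 difference from all others was 2.38. In the 7 cells with type II markers Cacna1b was at 31.3 CPM, with a count in 3, against 22.6 CPM in high-Calb2 cells. The list medians were -0.05, -0.18 and -0.20, so most channel genes differed little.

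Of 25 calcium-binding EF-hand genes with enough counts, 2 were higher (Kcnip4, and Calb2, which the rule used) and 5 lower (Calb1, Ncald, Kcnip2, Kcnip3 and Cib2), with a list median of -0.39. Calb1 had a median of 0 CPM in high-Calb2 cells against 17.5 in the others (log2 difference -3.01; -0.60, under the limit, where the Calb2 limit was 3000 CPM). Cib2, a calcium-binding protein needed in hair cells, had a median of 44.1 CPM, with 252.6 in high-Lypd1 cells (-1.38). The Kcnip genes encode partners of A-type potassium channels: Kcnip2 was at 26.9 CPM, with 104.4 in intermediate and 170.7 in high-Lypd1 cells (-2.15) and Kcnip3 at 10.3 against 25.1 CPM (-1.20; -0.74 without P26 Middle). Kcnip4 was at 97.8 against 44.5 CPM (1.12), but at P26 Base it was lower, with a log2 difference of -1.95, and its call was lost without P26 Middle (0.77) or without P27 Apex (0.80).

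Of 10 glutamate receptor genes and AMPA receptor partners, 0 were higher and 4 lower, Grm8, Grik2, Grik4 and Cacng5, and the list median was -0.27. The AMPA receptor subunit genes with enough counts, Gria2, Gria3 and Gria4, were at 126.3 against 157.2, 181.2 against 190.3 and 118.9 against 129.9 CPM, under the limits. Grik4, a kainate receptor subunit, had a median of 1.94 CPM in high-Calb2 cells and 22.2 in the others (log2 difference -1.39; exons shared with Gm24420), and Grik2 was at 3.33 against 10.5 CPM (-1.41; -0.87 in cells with Xist only). Cacng5, an AMPA receptor auxiliary protein, had a median of 0.447 CPM against 22.1 in the others (-1.67), but was at 792 CPM in the cells with type II markers, and without those 7 cells the value was -0.54. Of 7 receptors for transmitters of efferent fibres, Chrna4, a nicotinic receptor subunit, was higher (13.8 against 5.27 CPM, 1.24) and Htr2c, a serotonin receptor, lower (0.61 against 10.1, -2.78), with differences of -0.13 and 0.06 at P26 Base.

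No guidance gene was higher: of 27 Eph, ephrin, semaphorin and other guidance genes with enough counts, 7 were lower, with a list median of -0.55 beside -0.02 for all genes. Sema3a, a secreted repellent, had a count in 5 of 62 high-Calb2 cells against 61 of 124 others (log2 difference -3.75), and Sema4d, a membrane semaphorin, in 2 against 49 (-3.25). The receptor genes Dcc (netrin; -3.0), Robo2 (-2.73), Robo1 (-1.40), both for Slit ligands, and Plxna2 (semaphorins; -1.18) were lower as well, as was Sema3f (-1.64). Plxna2 was at 9.73 CPM in high-Calb2 and 9.65 in intermediate cells, and its value without P27 Apex was -0.78. The 7 genes thus included both ligands and receptors.

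Of 43 cell adhesion genes, 4 were higher and 7 lower, with a list median of -0.12. Besides Pcdh20, the higher ones were Cdh9 and Cdh22, classical cadherins, and Lrrc4c, which encodes the postsynaptic partner of netrin-G1. Cdh9 was counted in 60 of 62 high-Calb2 cells with a median of 79.5 CPM against 11.8 in the others (log2 difference 1.07; 0.98 without P26 Middle; exons shared on the other strand). Cdh22 was at 24.7 against 8.87 CPM (1.38), and Lrrc4c at 31.1 against 14.1 CPM (1.09), but at -0.83 at P26 Base and 0.70 without P26 Middle. Besides Ntng1, the lower ones were Tenm2 (-3.07), Pcdh9 (-3.03), Negr1 (-2.22), Cdh23 (-1.55), Nlgn1 (-1.42) and Cntn3 (-1.19). Pcdh9 was counted in 5 of 62 high-Calb2 and 32 of 124 other cells and lay on the other side at P27 Apex (0.69).

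None of the 72 genes of the nuclear-encoded respiratory chain with enough counts was called, with differences from -0.23 to 0.37 and a median of 0.11. Of 25 neurofilament, tubulin and axon genes, 0 were called; the neurofilament genes Nefl, Nefm and Nefh, given after their values were seen, were at 4316 against 2755, 2982 against 1508 and 2464 against 1351 CPM (0.65, 0.98 and 0.87). Of 11 neurotrophic factor and receptor genes and 2 neuropeptide and hormone genes, 0 were called. Of 9 retinoid pathway genes, Rxrg was called, and its relatives Rxra and Rxrb were at 14.2 against 13.2 and 18.0 against 19.1 CPM. Of 9 pan-neuronal and spiral ganglion genes, 1 was lower: Rbfox3, the splicing factor known as NeuN, at 11.9 against 71.4 CPM (-2.49). Among 19 early-response genes, Arc was higher (44.7 against 12.3 CPM, 1.78; -1.16 at P27 Middle) and Npas4 lower (4.14 against 22.3 CPM, -2.18). The Ib markers Calb1, Ttn, Lrrc52 and Runx1 were lower, but with a Calb2 limit of 3000 CPM Lrrc52 changed side (0.35) and Calb1 was under the limit (-0.60). Of the Ic markers, Pou4f1, Grm8 and Runx1 were lower, and Lypd1 was set by the rule.

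**Figure D4:**
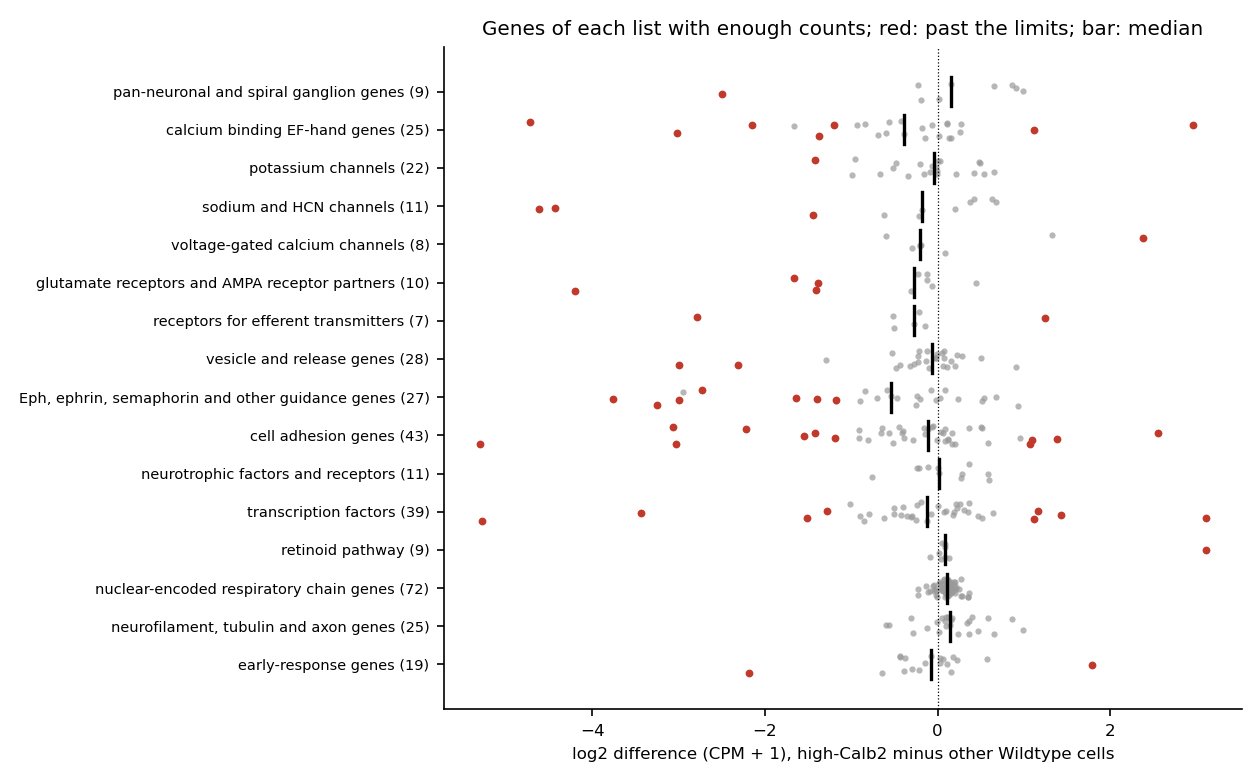
Log2 difference of summed CPM + 1, high-Calb2 minus other Wildtype cells, for each gene with enough counts on 16 lists (number of genes in brackets); red points passed the limits and the black bar is the list median. The 72 respiratory chain genes lie between -0.23 and 0.37, while 7 of 27 guidance genes lie in red to the left.

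By turn, high-Calb2 cells were 24 of 52 cells at P26 Middle (46.2%, exact Clopper-Pearson interval 32.2 to 60.5), 18 of 41 at P26 Base (43.9%, 28.5 to 60.3) and 1 of 12 at P26 Apex (8.33%, 0.211 to 38.5). At P27 they were 14 of 44 at the Apex (31.8%, 18.6 to 47.6) and 4 of 34 at the Middle (11.8%, 3.30 to 27.5), and at P25 1 of 2 at the Middle and 0 of 1 at the Base. The Middle share was thus higher at P26 than at P27, while P26 Middle and P26 Base were close. These intervals count cells and not animals, so they are no test of age or turn. Y-linked transcripts were present in 15 of 24 high-Calb2 and 19 of 28 other cells at P26 Middle and in 0 cells at P27 Middle and at P27 Apex, and the part of this in the share was not tested. The P27 Middle cells fell into 2 ranges of spike-in share: below 2%, 3 of 15 cells were high in Calb2 (20%, 4.33 to 48.1), and at or above it, 1 of 19 (5.26%, 0.133 to 26.0). The part of this range in the share was not tested either. With a limit of 3000 CPM of Calb2 the P26 Apex share was 50%. Cells were picked by hand, so a share of picked cells need not be that of the ganglion.

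Calb2 in high-Calb2 cells was at 7590, 12297 and 20031 CPM in the lowest, median and highest cell of P26 Middle, 5640, 10710 and 16485 at P26 Base, and 5066, 9002 and 12331 at P27 Apex. In the 4 cells of P27 Middle it was at 9897, 10003, 10933 and 12156 CPM. Rxrg was at 73.4 CPM (71.2 to 75.7) at P26 Middle, 76.6 (74.3 to 79.0) at P26 Base, 37.3 (35.3 to 39.4) at P27 Apex and 111.5 (105.02 to 118.2) at P27 Middle, and its cells overlapped in all 4 sets.

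Between the 24 high-Calb2 cells of P26 Middle and the 18 of P26 Base, 73 of 4063 genes (1.8%) were higher in the Middle and 99 (2.44%) lower, past a log2 difference of 1 with at least 50 CPM and a count in at least 50% of cells of the higher group. With a minimum of 10 CPM the counts were 380 and 357, in cells with Xist alone 271 and 357, and in cells with Y-linked transcripts alone 252 and 259, so they depend on the limits and the cells. Kcnip4 was at 0, 74.7 and 341 CPM in the lowest, median and highest Middle cell and at 0, 0 and 89.2 at the Base, with a count in 20 of 24 against 3 of 18 cells (log2 difference 4.67). All 14 cells of P27 Apex and all 4 of P27 Middle had a Kcnip4 count, so P26 Base stood apart. Opcml, a GPI-anchored adhesion protein, was at 115.3 against 16.8 CPM (2.71), Csrnp3, a nuclear protein, at 87.2 against 12.7 (2.69), Kcns3, a modulatory potassium channel subunit, at 52.5 against 8.08 (2.56), and Cdr1 at 229 against 28.99 (2.94). Exons of Cdr1, Csrnp3 and, below, Pcsk2 overlap other genes on the opposite strand, and the Cdr1 level came from 12 of 24 Middle cells.

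In the other direction, Cpne6, a calcium-dependent phospholipid-binding copine, was at 0, 0 and 39.1 CPM in the lowest, median and highest Middle cell and at 0, 24.2 and 787 at the Base (log2 difference -4.20). Hspb8, a small heat shock protein, was at 0, 0 and 43.6 CPM in the Middle and 0, 70.02 and 224.2 at the Base, counted in 5 of 24 and 17 of 18 cells (-4.04). Kcnip2 was at 0, 0 and 59.7 CPM in the Middle and 0, 43.5 and 343 at the Base (-3.76), opposite to Kcnip4, and Kcnip1 was lower in the Middle as well. Dbpht2 (-2.55) and Pcsk2, a prohormone convertase (-2.27), were lower in the Middle as well. For each of these 10 genes the 2 turns overlapped.

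The 10 genes kept their side where cells with Xist (7 of the Middle and 9 of the Base) and cells with Y-linked transcripts (15 and 7), subsets of the cells that chose them, were taken apart. Spike-in RNA took a median of 2.86% of counts in the Middle cells and 0.76% in the Base cells, so turn and library composition differed together, and its part in the result was not tested. In the intermediate cells of the same 2 sets, 21 of the 73 (28.8%) and 23 of the 99 (23.2%) were past 1 on the same side, beside 3.96% and 3.15% of all 4063 genes. In the high-Lypd1 cells it was 25 of 73 (34.2%) and 18 of 99 (18.2%), beside 5.39% and 3.74%. Of the 10 genes, Opcml (2.58), Kcnip4 (1.07), Pcsk2 (-1.55), Cpne6 (-1.45) and Dbpht2 (-1.34) were past 1 in the intermediate cells. Hspb8 was just under 1 in size (-0.997), Kcnip2 was at -0.57, Kcns3 at 0.17, Csrnp3 at 0.10 and Cdr1 on the other side, at -1.82. Whether these differences between classes exceed what animals or preparations give was not tested.

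**Figure D5:**
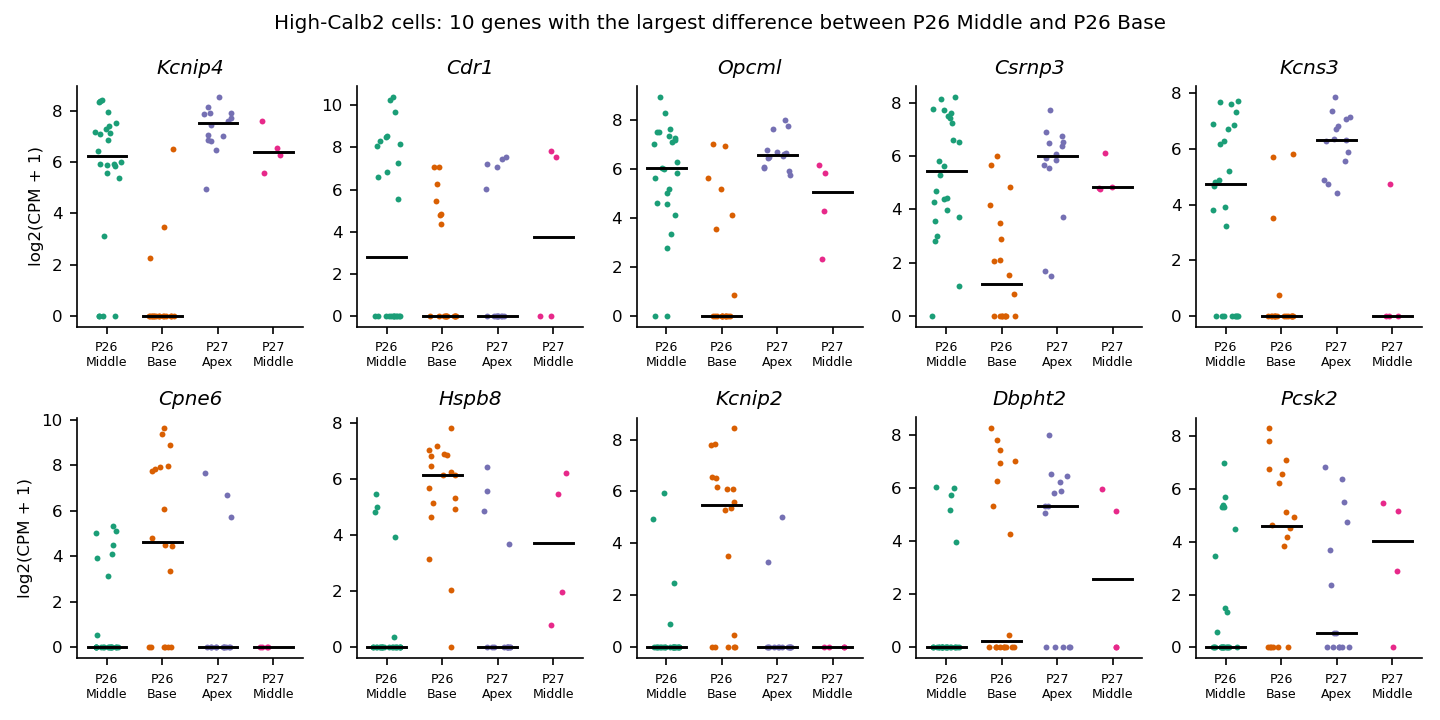
Levels as log2(CPM + 1) in each high-Calb2 cell of P26 Middle (24 cells), P26 Base (18), P27 Apex (14) and P27 Middle (4), with a bar at the median, for the 5 genes highest in P26 Middle (upper row) and the 5 highest in P26 Base (lower row). The Kcnip4 median is 0 at P26 Base alone, and Hspb8 is present in 17 of 18 cells there.

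Among the 62 high-Calb2 cells the most variable genes at 50 CPM or more were Fos, Cdr1, Btg2, Egr1, Atf3, Kcnip4, Slc17a6, Dusp1, Cpne6 and Scai, by the SD of log2(CPM + 1). That SD was 4.05 for Fos and 3.10 for Scai, the tenth, beside a median of 1.17 over 3696 genes and 0.44 for Calb2, whose range the rule bounds from below. Fos, Egr1, Atf3, Btg2 and Dusp1 are early-response genes, which neurons and stressed cells switch on within minutes. Fos was at 0, 782 and 2170 CPM in the lowest, median and highest cell, with a count in 49 of 62; all 14 cells of P27 Apex and all 4 of P27 Middle had one, against 18 of 24 at P26 Middle and 11 of 18 at P26 Base. Its SD was as large in the intermediate cells (4.04). Of 11 early-response genes compared between P26 Middle and P26 Base, Btg2 alone passed the limits, at 269 against 1206 CPM (log2 difference -2.16).

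Of the 22 high-Calb2 cells with a Slc17a6 count, 13 were at P27 Apex, but of the 12 with Ntng1 5, of the 27 with Runx1 10 and of the 4 with Lypd1 0. Pou4f1 was counted in 5 of the 14 cells of P27 Apex, against 1 of 24 at P26 Middle, 2 of 18 at P26 Base and 0 of 4 at P27 Middle. In those 5 cells Pou4f1 was at 10.1, 21.2, 110.9, 220.98 and 291 CPM. Their Calb2, in the same order, was at 5066, 8237, 8355, 6718 and 7368 CPM, all below the median of 9002 CPM in the set, and their Slc17a6 at 320, 288, 557, 295 and 942 CPM. In the 9 cells without Pou4f1, Calb2 ran from 6772 to 12331 CPM with a median of 10552, and Slc17a6 from 0 to 400 CPM with a median of 84.98. Runx1 was counted in all 5 and in 5 of the 9, with medians of 32.7 and 3.25 CPM. The Ia marker Rxrg was counted in 3 of the 5 and 7 of the 9, with medians of 4.14 and 37.9 CPM. Pcdh20 was counted in 3 of the 5 and 8 of the 9, with medians of 32.2 and 30.1 CPM. This split was chosen after the values were seen, and the 2 groups of cells overlapped in Calb2 and in Slc17a6.

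Over all Wildtype cells the genes most like Calb2, by Pearson's r of log2(CPM + 1) among 8455 genes, were B3gat1 (0.69), Cd24a (0.68), Efemp1 (0.67), Cdk15 (0.66) and Cdh9 (0.65), and the most opposed were Lypd1 (-0.68), Grm8 (-0.66), Rph3a (-0.63), Scn2b (-0.62) and Ccdc109b (-0.61). These values mix the classes, and cells share depth and preparation. Within the 62 high-Calb2 cells the same genes gave r between -0.29 (Grm8) and 0.36 (Cdk15) and 0.07 for B3gat1, with no value for Ccdc109b, which had 0 counts in them. Cd24a was at -0.23 within the class and 0.80 within the 73 intermediate cells. The lowest value in those 73 cells was 0.26 CPM for Calb2 and also for Cd24a, far below their medians of 2066 and 955 CPM. The part of such low values in the r of 0.80 was not tested.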

How the data were processed

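RNA of 226 single mouse spiral ganglion neurons was measured with Smart-seq2, and the 186 Wildtype cells were used. The authors deposited a table of raw counts per gene, and the submitters' processing notes name the genome build mm10 and, in no stated order, STAR 2.4.0, Seurat 1.4.0.12, Trimmomatic 0.33, edgeR 3.14.0, Subread 1.4.6 and featureCounts. The strand setting of the counting is not given in the sources used here. A deposited table of normalized values for the same cells was not used.

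The 92 spike-in rows and the tdTomato reporter row were left out, and CPM was taken over the 24491 gene rows of each cell. A group's level is its summed counts as CPM, with an exact Poisson interval, and a log2 difference is taken on CPM + 1, which understates the change of low genes. No label names an animal, so no p-value could be given, and intervals cover counting error only. Reads carry no molecular identifiers in the sources used here.

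The text names the 12 largest called differences on each side, the called genes and markers of 24 lists, the 5 largest on each side by turn, the 10 most variable genes among those at 50 CPM or more, and the 5 genes most and least like Calb2. Others are said to be chosen after their values were seen, and 1 gene that the rule names is not reported here. The members and lists were chosen with earlier results of these data known. A fold against a group at 0 was set against 3 counts over that group, a bound that covers counting error and not the spread between cells. Xist and Y-linked transcripts above 7 CPM sorted cells by sex. Overlapping exons were looked up in GENCODE M21, and promoter windows from RefSeq (GRCm38.p6).

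Alternatives changed the scaling (TMM, median ratio), the added CPM, the level limits, the Calb2 and Lypd1 limits, the depth (cells thinned to 500000 counts), the pooling and the sets, sexes and classes of cells included. Python 3.11.15, numpy 2.4.6, pandas 2.3.3, scipy 1.17.1 and matplotlib 3.10.9 were used, and R 4.3.3 with edgeR 4.0.16 for TMM factors only.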

Additional observations from a re-analysis of the deposited data

How the results depend on the processing

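The number of genes counted as higher or lower in high-Calb2 cells stayed within 1.5 times of 103 and 232 under most alternatives. These were TMM and median-ratio scaling, thinning, Calb2 limits of 3000 and 6000 CPM, a Lypd1 limit of 30 CPM and set means. They were also each set left out, cells with Xist only, the type II-marker cells left out and means over cells. It moved further with 5 CPM added, where 1.74% were lower, and with no minimum level, where 0.67% of all 24491 genes were higher, the second over a larger number of genes tested. With a Calb2 limit of 3000 CPM the P26 Apex share was 50%, and Lrrc52 changed side, at 0.35; the cause was not tested. The genes themselves changed more than these numbers show. Of the 103 higher genes, 78 were still counted without P27 Apex and 79 with a Calb2 limit of 3000 CPM. In cells with Xist only it was 85, while TMM and median-ratio scaling kept all 103. The list of lower genes lost members under the same choices of cells. Of 66 named genes past the limits, 49 stayed at least 1 in size in all 20 alternatives. Leaving out P26 Middle or P27 Apex took Kcnip4, Kcnip3 and Lrrc4c under 1. Between the P26 turns the counts of genes were 380 higher and 357 lower with a minimum of 10 CPM, 271 and 357 in cells with Xist only, and 252 and 259 in cells with Y-linked transcripts only. These last 2 splits, and leaving out P27 Middle cells with 2% or more spike-in, were chosen after seeing the data, and they compare fewer cells. Genes with few counts per cell set the limit: a gene at 0 in all 62 cells has an upper bound, not a level. No paired analysis was possible because no label names an animal or preparation and the replicate numbers only name cells.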
